A study of Mus musculus with 6 samples.

Results

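The transcripts of integrin subunits and focal adhesion proteins were compared between WT and Kansl1 KO mouse embryonic fibroblasts (MEFs). The genes were taken by name, as the numbered integrin alpha and beta subunits with Itgav and 19 adaptor, kinase and actin-linking genes of focal adhesions. Of 39 genes with such a name among the 26898 genes measured, the 35 with a mean of at least 1 TPM over the 6 samples are described here. TPM (transcript level per unit of length) divides the reads of a gene by its length and scales each sample to the same total, so that levels of different genes can be set side by side. The lowest members were Itgb2 at a mean of 1.20 TPM, Ilk at 1.39 TPM and Itga10 at 1.43 TPM. The 4 genes left out were Itgb7 at 0.664 TPM, Itgb4 at 0.497 TPM, Fermt1 at 0.0615 TPM and Itgb6 at 0.0338 TPM.

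Integrins are receptors made of 1 alpha and 1 beta subunit that bind the extracellular matrix outside the cell. Inside the cell, talin and kindlin bind the beta tail and switch the receptor on, vinculin and filamin tie it to actin, and focal adhesion kinase, Src and paxillin form the signalling layer. Fibroblasts grown on a dish attach to it through these structures, and the integrin of Itga5 and Itgb1 is the classical receptor for fibronectin. KANSL1 belongs to the NSL complex, which acetylates histones at gene promoters.

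The cells were primary MEFs at passage 3 from C57BL/6 embryos, cultured per the labels in medium with 10% serum, while the general methods of the study name more serum. The WT group was Kansl1 fl/fl, with both alleles flanked by recombination sites and no Cre, and the KO group was Kansl1 fl/fl/CAG-cre, in which a ubiquitous promoter drives a Cre recombinase that tamoxifen activates. Both groups received 1 μM tamoxifen for 48 h. There were 3 mice in each group, labelled WT 4, WT 5 and WT 8 and KO 3, KO 7 and KO 10. The loss of Kansl1 and the presence of active Cre cannot be told apart in this design, and RNA of the whole culture was measured, so fewer cells of a type and less RNA per cell cannot be told apart either.

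The reads assigned to genes ranged from 17655495 in KO 3 to 27718259 in KO 7. Pearson's r of log2 expression over genes, a description of the libraries only, was 0.980 to 0.987 for samples of 1 group and 0.958 to 0.965 for samples of different groups. Kansl1 itself was at 28.5, 26.7 and 24.4 TPM in the WT samples and at 13.7, 15.8 and 14.4 TPM in the KO samples, a fall to 55.1% of the WT mean (log2 fold change -0.82 ± 0.11 SE, limma adjusted p = 0.000859). Fibroblast markers summed to between 7252 and 11290 TPM in the WT samples and between 8290 and 10922 TPM in the KO samples, and 0 of 10 tested differed at an adjusted p under 0.05, beside 27.8% of all tested genes (2 had an unadjusted p under 0.05). A single small RNA, Gm23935, took 15.5% to 25.6% of TPM in a sample, which lowers the TPM of every other gene there by the same factor. Its share was 15.5%, 18.3% and 24.3% in WT 4, WT 5 and WT 8. In KO 3, KO 7 and KO 10 it was 25.6%, 15.5% and 19.9%, so the groups overlapped. Many, though not all, of the results below are also given after median-of-ratios scaling. This scaling sets the samples to the typical gene and raised the median over tested genes by 0.08 on the log2 scale. What part Gm23935 has in this shift was not tested.

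Few of the adhesion genes passed a test. At the thresholds of the study, an adjusted p under 0.005 with a log2 fold change beyond 0.5, limma called 0 of the 35 genes. Of the 14799 tested genes, 10.7% were called. An unadjusted p under 0.05 was found for 12 of the 35, 4 higher and 8 lower in KO. The 4 include Itgb2, whose WT mean of 0.732 TPM is under the limit and which was tested only through its KO level. At least 27.8% of all tested genes had such an unadjusted p, since that share passed an adjusted p under 0.05. At an adjusted p under 0.05, 4 of the 35 (11.4%) differed, against 27.8% of tested genes. Pxn was higher in KO, a direction that held 7.14% of tested genes, and Fermt2, Vcl and Itga9 were lower, a direction that held 20.7%. After median-of-ratios scaling, 13 of the 35 passed an adjusted p under 0.05, against 42.8% of tested genes; these include Itgb2, which is no support for a difference for the reason given, and 12 remain without it. Pxn then passed the thresholds of the study. The count of 4 depends on single samples, being 0 without KO 10, 1 without WT 5 and 7 without WT 8. Among all tested genes, 601 were then higher and 2235 lower of 14812 without KO 10. These numbers were 780 and 2124 of 14821 without WT 5, and 670 and 2837 of 14883 without WT 8.

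The median log2 fold change of the 35 genes was -0.05, beside -0.07 for all tested genes, whose interquartile range ran from -0.38 to 0.17. After scaling the medians were 0.04 and 0.01. The 3 KO samples lay entirely above the 3 WT samples for 6 of the 35 genes and entirely below them for 7, against 13.3% and 29.9% of all tested genes. After scaling these numbers were 8 and 8, against 26.4% and 30.2%. Itgb2 is among the genes with higher KO samples, which number 5 without it in the deposited values and 7 after scaling. The other 22 genes overlapped between the groups in the deposited values.

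**Figure D1:**
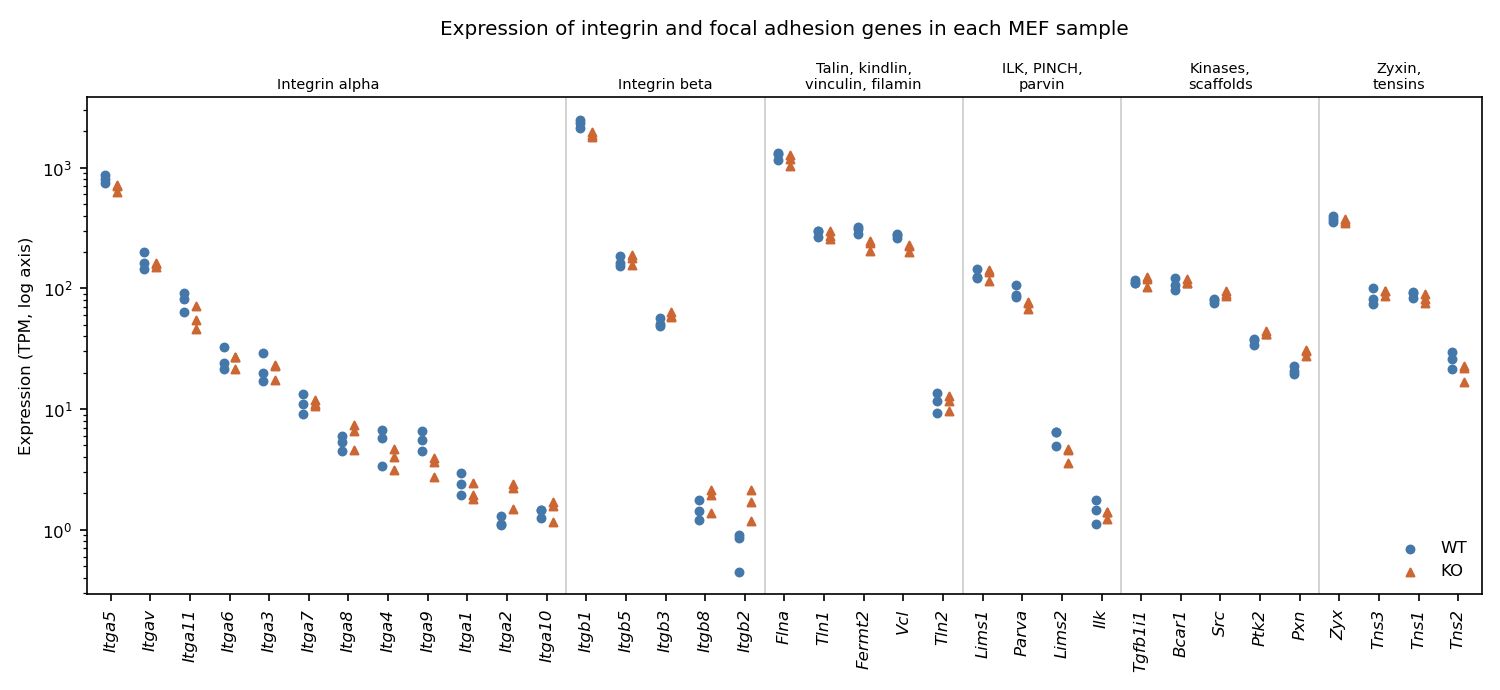
Expression in TPM (log axis) of the 35 genes in each of the 6 samples, ordered by role and, within a role, by mean level, with circles for WT and triangles for KO. Levels span from Itgb1 at a mean of 2090 TPM to Itgb2 at 1.20 TPM, and for most genes the circles and triangles overlap.

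Among the integrin beta subunits, Itgb1, the common partner of most alpha subunits, dominated the transcript pool. It held between 88.2% and 92.5% of the summed beta subunit TPM in every sample. Itgb1 was at 2494, 2350 and 2109 TPM in WT 4, WT 5 and WT 8, and at 1776, 1963 and 1844 TPM in KO 3, KO 7 and KO 10. All KO samples lay below all WT samples, and the KO mean was 80.3% of the WT mean. The log2 fold change of Itgb1 was -0.31 (95% CI -0.55 to -0.08) with a limma adjusted p of 0.0512, just short of 0.05. After median-of-ratios scaling the Itgb1 value was -0.23 with an adjusted p of 0.0158. Leaving out 1 sample gave Itgb1 a limma adjusted p from 0.0389 (without WT 8) to 0.18 (without KO 10), and testing all genes gave 0.21.

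Itgb3, which pairs with Itgav in the vitronectin receptor, was at 48.8, 56.4 and 50.7 TPM in the WT samples and at 58.0, 59.5 and 64.0 TPM in the KO samples. The groups did not overlap, but the log2 fold change of 0.22 ± 0.10 (SE) had an adjusted p of 0.138, and after scaling 0.30 with an adjusted p of 0.0325. Leaving out 1 sample gave Itgb3 a limma adjusted p from 0.128 (without KO 3) to 0.42 (without KO 10). Itgb5, another partner of Itgav, overlapped between the groups in the deposited values, at 166 ± 16.5 TPM in WT and 174 ± 16.7 TPM in KO (SD, n = 3 each). After scaling, all Itgb5 values in KO lay above those in WT, without passing (log2 fold change 0.155, limma adjusted p = 0.174). Itgb8, which also pairs with Itgav and is known for activating TGF-beta, was low at 1.46 ± 0.29 and 1.81 ± 0.40 TPM (SD, n = 3 each), with overlapping groups. The ratio of Itgb3 to Itgb1, which any scaling of a library leaves unchanged, lay between 0.0196 and 0.0240 in WT and between 0.0303 and 0.0347 in KO, while the ratio of Itga5 to Itgb1 overlapped between the groups, with means of 0.347 and 0.365. The ratio of Itgb3 to Itgb5 overlapped, at 0.307 to 0.321 in WT and 0.318 to 0.374 in KO. Itgav to Itgb1 lay at 0.0682 to 0.0797 in WT and 0.0828 to 0.0854 in KO, and Itgb3 to Itgav at 0.245 to 0.352 and 0.366 to 0.406, both without overlap. These gene pairs were chosen after the values were seen, and the ratios are given as a description.

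Itgb2, the beta subunit of leukocyte integrins, had the lowest level of the 35 genes. It was at 0.849, 0.448 and 0.898 TPM in the WT samples (21, 12 and 26 reads) and at 1.71, 1.18 and 2.13 TPM in the KO samples (38, 35 and 58 reads). The groups did not overlap and the KO mean was 229% of the WT mean, with a log2 fold change of 0.62 ± 0.22 (SE), an adjusted p of 0.0608, and 0.0428 after median-of-ratios scaling. The value was 1.11 with a pseudocount of 0.1 and 1.26 with voom on recovered reads. With a WT mean of 0.732 TPM and a KO mean of 1.67 TPM, Itgb2 reached the limit of 1 TPM only through the group in which it is high, so these values describe the gene and support no difference. The alpha subunits that Itgb2 pairs with in leukocytes, Itgal, Itgam, Itgax and Itgad, were each at 0.379 TPM or less in every sample.

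Macrophage markers are given beside Itgb2, since macrophages express it. The KO mean was higher for all 10 markers of the list. Mrc1 and Adgre1 had a mean of 1 TPM or more only in the KO group. Of the 6 markers with such a mean in both groups, 5 were higher at an adjusted p under 0.05, against 7.14% of all tested genes. The 10 markers summed to between 36.9 and 42.2 TPM in WT, and to 78.0, 87.9 and 156 TPM in KO 3, KO 7 and KO 10. Lyz2, a macrophage lysozyme with a near-identical copy in the genome, was the main contributor, at 20.6 to 23.8 TPM in WT and 53.1 to 111 TPM in KO. The pan-leukocyte gene Ptprc was at or below 0.257 TPM in every sample, and Itgam at or below 0.379 TPM. Of the other marker lists, 1 of 3 tested epithelial markers was higher at an adjusted p under 0.05, and 0 of 2 endothelial, 0 of 2 muscle and 0 of 5 neural markers passed in limma (1, 0 and 1 had an unadjusted p under 0.05), beside 27.8% of all tested genes in either direction. Whether macrophages in the cultures have a part in the Itgb2 values was not tested.

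**Figure D2:**
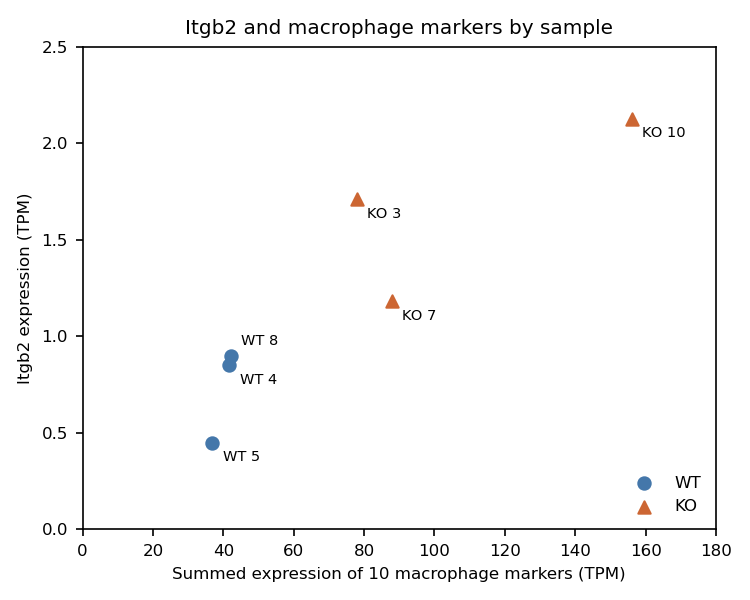
Itgb2 expression against the summed expression of 10 macrophage markers, both in TPM, with 1 point per sample (circles WT, triangles KO). The 3 KO samples lie above 1.1 TPM of Itgb2 and at 78.0 TPM or more of the markers, and the 3 WT samples lie below on both axes. Itgb2 reached 1 TPM only through the KO group, so the plot is a description.

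Of the 12 alpha subunits, Itga5, the fibronectin receptor subunit, was the most abundant and held 68.3% to 72.6% of the summed alpha subunit TPM. Itga5 was at 798, 859 and 747 TPM in the WT samples and at 625, 714 and 701 TPM in the KO samples. The KO samples were all lower, at 84.8% of the WT mean, with a log2 fold change of -0.24 ± 0.10 (SE) that did not pass (adjusted p = 0.113, and 0.0528 after scaling). Itgav, the vitronectin receptor subunit, followed at 199, 161 and 144 TPM in WT and 151, 163 and 158 TPM in KO, with overlapping groups and a 95% CI of the log2 fold change from -0.36 to 0.19. The sum over the 12 subunits ran from 1029 to 1188 TPM in WT and from 891 to 1031 TPM in KO, so that WT 8 and KO 7 overlapped.

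Itga9, a subunit that binds tenascin-C and osteopontin, was the alpha subunit that passed the test. It was at 5.49, 6.60 and 4.50 TPM in the WT samples and at 2.74, 3.95 and 3.67 TPM in the KO samples. The groups did not overlap and the KO mean was 62.4% of the WT mean (5.53 ± 1.05 against 3.45 ± 0.63 TPM, SD, n = 3 each). The log2 fold change of Itga9 was -0.55 (95% CI -0.94 to -0.17, limma adjusted p = 0.0391), and -0.48 after scaling (adjusted p = 0.0187). The call was lost without WT 4, without WT 5, without KO 3 and without KO 10 and when all 26898 genes were tested, with an adjusted p between 0.0726 and 0.149.

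Of the collagen receptor subunits, Itga11 was at 81.7, 90.9 and 64.2 TPM in WT and at 45.6, 70.9 and 54.9 TPM in KO. The Itga11 groups overlapped through WT 8 and KO 7, and the log2 fold change of -0.47 ± 0.17 (SE) had an adjusted p of 0.0744. Itga2 was low at 1.30, 1.12 and 1.09 TPM in WT and 1.48, 2.37 and 2.20 TPM in KO, without overlap, at 172% of the WT mean (log2 fold change 0.46 ± 0.19 SE, adjusted p = 0.0964). The value of Itga2 was 0.715 with a pseudocount of 0.1, and 0.89 with voom on recovered reads (adjusted p = 0.00247), where it passed the thresholds of the study. Itga11 and Itga2 passed an adjusted p of 0.05 after scaling, at 0.0447 and 0.0215. Leaving out 1 sample gave a limma adjusted p from 0.0257 to 0.214 for Itga11 and from 0.0465 to 0.267 for Itga2. Itga1 and Itga10, the other collagen receptor subunits, overlapped between the groups, with log2 fold changes of -0.16 and 0.05.

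For the laminin receptor subunits Itga3, Itga6 and Itga7 the log2 fold changes were -0.04, -0.05 and 0.03, and the signs of Itga3 and Itga6 turned after scaling (0.05 and 0.04). Itga3 showed how far WT 4 stood from the other WT samples, at 29.3 TPM against 17.2 and 19.7 TPM in WT 5 and WT 8, and 17.3 to 23.2 TPM in KO. Itga4, which binds fibronectin and VCAM1, was at 3.40, 6.75 and 5.72 TPM in WT and 3.11, 3.98 and 4.64 TPM in KO (adjusted p = 0.295, and 0.0447 without WT 4). Itga8, a receptor for nephronectin, had a log2 fold change of 0.18 with overlapping groups.

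**Figure D3:**
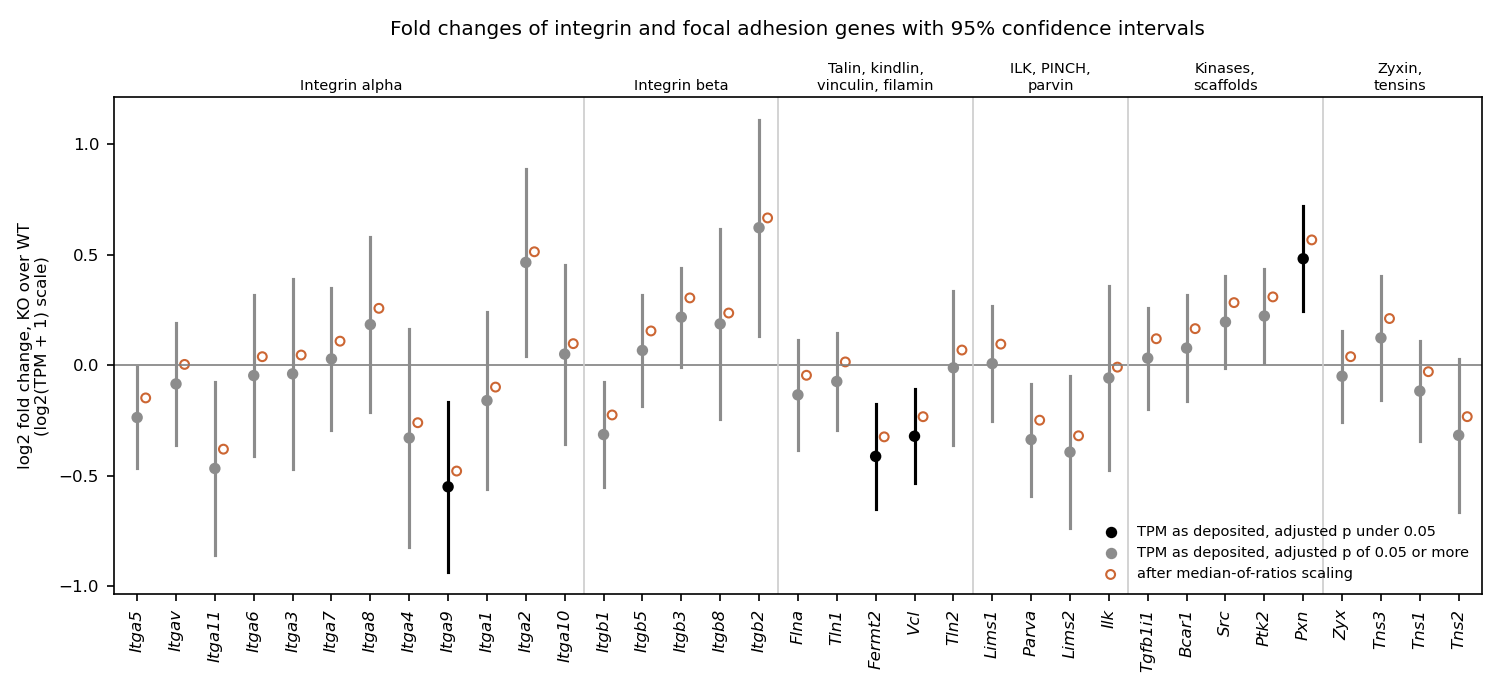
Log2 ratio of the KO to the WT level in each of the 35 genes (filled points) with its 95% confidence interval (vertical lines), on the log2(TPM + 1) scale, and the value after median-of-ratios scaling (open circles). Black marks the genes with an adjusted p under 0.05, which are Itga9, Fermt2, Vcl and Pxn, and the open circles lie above the filled points throughout.

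Of the proteins that act on the integrin tail and join it to actin, Fermt2 and Vcl were lower in KO, while the talins and filamin A did not pass. Fermt2 encodes kindlin-2, which activates integrins together with talin. It was at 324, 308 and 281 TPM in the WT samples and at 205, 245 and 236 TPM in the KO samples. The groups were apart, with means of 304 and 229 TPM, and KO was at 75.1% of WT. The log2 fold change of Fermt2 was -0.41 (95% CI -0.65 to -0.18) with a limma adjusted p of 0.0174, and -0.32 with 0.00106 after scaling. Fermt2 lost the call without WT 5 (adjusted p = 0.0627) and without KO 10 (0.0546).

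Vcl encodes vinculin, which strengthens the link between talin and actin under tension. It was at 280, 277 and 259 TPM in the WT samples and at 200, 229 and 224 TPM in the KO samples. The groups did not overlap and KO was at 80.0% of WT, with a log2 fold change of -0.32 (95% CI -0.53 to -0.11, limma adjusted p = 0.0316) and -0.23 after scaling (adjusted p = 0.00502). The adjusted p lay between 0.0501 and 0.119 without WT 4, WT 5, KO 3 or KO 10, with all genes tested or without the variance trend, so that the call was lost there. Of the exon length of Vcl, 25.5% lies opposite exons of Ap3m1 on the other strand, and the library kit does not mark strand. Ap3m1 was at 32.9 TPM in WT and 25.3 TPM in KO, far below Vcl, with a log2 fold change of -0.36 (adjusted p = 0.0635).

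Fermt2 (14:45458795-45530118, minus strand) and Vcl (14:20929398-21033676, plus strand) lie on the same chromosome of mm10. Their promoters are shown because, among the 25 members with a promoter entry, only they had a CArG box in the promoter window. A CArG box is the sequence that serum response factor binds. The search covered the RefSeq promoter windows of GRCm38.p6, which is the same assembly as mm10, from 250 bases before to 50 bases after the start of transcription. A CArG box was taken as CC, then 6 bases that are each A or T, then GG, which reads as the same motif on both strands. It was found in 535 of 32851 windows of all genes (1.63%) and in 2 of the 25 members with an entry. These 25 members have 30 windows, so the 2 counts are in different units. Members without an entry were not searched. The 250 bases before the RefSeq start are printed 5′ to 3′ on the strand of the gene, from chr14:45530066-45530315 (minus strand) for Fermt2 and chr14:20929148-20929397 (plus strand) for Vcl, with the CArG box in capitals.
Fermt2: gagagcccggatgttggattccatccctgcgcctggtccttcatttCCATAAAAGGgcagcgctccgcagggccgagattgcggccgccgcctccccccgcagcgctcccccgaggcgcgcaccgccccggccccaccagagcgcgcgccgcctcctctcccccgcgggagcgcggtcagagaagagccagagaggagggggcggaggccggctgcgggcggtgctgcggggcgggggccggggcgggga
Vcl: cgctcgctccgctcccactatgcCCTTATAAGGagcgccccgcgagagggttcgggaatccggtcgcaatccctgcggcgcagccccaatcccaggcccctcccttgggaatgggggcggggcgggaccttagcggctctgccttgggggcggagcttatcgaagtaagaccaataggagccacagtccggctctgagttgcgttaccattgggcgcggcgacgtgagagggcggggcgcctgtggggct
The box begins 204 bases before the RefSeq start in Fermt2 and 227 bases before it in Vcl. The motif was chosen after the values were seen, and a match is a description of the letters and not evidence of a bound factor. The TEAD motif, searched as GGAATG on both strands, was found in 14.7% of all windows and in Flna, Itga10, Itgb1 and Vcl among the members, of which Vcl alone passed an adjusted p of 0.05 in the deposited values.

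Talin, the protein that couples the integrin beta tail to actin, is encoded by Tln1 and Tln2. Tln1 was at 298, 299 and 268 TPM in WT and at 256, 296 and 270 TPM in KO. These groups overlapped, and the 95% CI of the Tln1 log2 fold change ran from -0.29 to 0.15. Tln2 was lower in level, at 11.5 ± 2.09 and 11.3 ± 1.58 TPM (SD, n = 3 each). Flna, the actin crosslinker filamin A and the second most abundant gene of the set, was at 1324, 1306 and 1160 TPM in WT and 1025, 1259 and 1174 TPM in KO. The Flna groups overlapped, with a 95% CI of the log2 fold change from -0.38 to 0.12. After scaling, all Flna values in KO lay below those in WT, without passing (log2 fold change -0.0458, limma adjusted p = 0.378). The values of Tln1 and Tln2 turned positive after scaling (0.01 and 0.07).

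The complex of integrin-linked kinase, PINCH and parvin binds the beta tail next to kindlin. Parva, the actin-binding parvin, was at 106, 88.3 and 85.3 TPM in WT and at 66.9, 77.0 and 76.0 TPM in KO, without overlap and at 78.8% of the WT mean. The log2 fold change of Parva was -0.34 ± 0.11 (SE) with an adjusted p of 0.0517, and 0.0219 after scaling. Leaving out 1 sample gave a limma adjusted p from 0.0483 to 0.129 for Parva and from 0.0598 to 0.241 for Lims2. Lims2, the lower of the PINCH genes, was at 6.41, 6.41 and 4.93 TPM in WT and 3.55, 4.55 and 4.69 TPM in KO, again without overlap (log2 fold change -0.39 ± 0.15 SE, adjusted p = 0.0856, and 0.0327 after scaling). Lims1, the abundant PINCH gene, did not pass, at 130 ± 12.6 and 131 ± 14.3 TPM (SD, n = 3 each) with a 95% CI from -0.25 to 0.27. Ilk was listed at only 1.12, 1.45 and 1.77 TPM in WT, with the KO samples inside that range. Of the exon length of Ilk, 89.7% lies opposite exons of Taf10 and Rrp8, which limits what the listed value says about the level of Ilk.

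In the signalling layer of the adhesion, all 5 kinases and scaffolds among the members had positive log2 fold changes, from 0.03 to 0.48. The interquartile range of all tested genes ran from -0.38 to 0.17. The sign of the lowest, Tgfb1i1, turned without KO 7 (-0.02), and Bcar1 was at 9.14e-05 without WT 8. For Pxn, Ptk2 and Src all KO samples lay above all WT samples, as they did for 13.3% of all tested genes. After scaling this held for 4 of the 5, against 26.4% of tested genes. Pxn encodes paxillin, the scaffold that focal adhesion kinase and Src phosphorylate, and lies at 5:115506676-115555987. Pxn was at 20.8, 22.6 and 19.3 TPM in the WT samples and at 27.7, 30.4 and 30.7 TPM in the KO samples. The KO mean was 141% of the WT mean (20.9 ± 1.63 against 29.6 ± 1.63 TPM, SD, n = 3 each). The log2 fold change of Pxn was 0.48 (95% CI 0.25 to 0.72) with a limma adjusted p of 0.00864, and 0.57 with 0.000876 after scaling. Pxn was called in every setting tried except without KO 10, where the adjusted p was 0.051.

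Ptk2, focal adhesion kinase, was at 38.1, 36.9 and 34.2 TPM in WT and at 41.5, 44.3 and 42.1 TPM in KO, 117% of the WT mean. Src, the kinase that it recruits, was at 82.1, 80.4 and 74.8 TPM in WT and at 90.2, 95.4 and 86.5 TPM in KO, 115% of the WT mean. Neither passed in the deposited values (log2 fold changes 0.22 ± 0.10 and 0.20 ± 0.09 SE, adjusted p = 0.115 and 0.151), and both did after scaling (0.31 and 0.28, adjusted p = 0.00622 and 0.0147). Bcar1, the scaffold p130Cas, and Tgfb1i1, the paxillin relative Hic-5, overlapped between the groups in the deposited values, with log2 fold changes of 0.08 and 0.03. After scaling, all Tgfb1i1 values in KO lay above those in WT, without passing (log2 fold change 0.119, limma adjusted p = 0.126).

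Pxn rose and Vcl fell, and their ratio within a sample separated the groups. The ratio of Pxn to Vcl was 0.0744, 0.0817 and 0.0748 in the WT samples and 0.138, 0.133 and 0.137 in the KO samples, 1.77 times higher in KO. The ratio of Ptk2 to Vcl was 0.132 to 0.136 in WT and 0.188 to 0.207 in KO. In both ratios every KO sample lay above every WT sample by more than the spread within a group. The pairs were picked from values already seen, so the ratios carry no test.

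**Figure D4:**
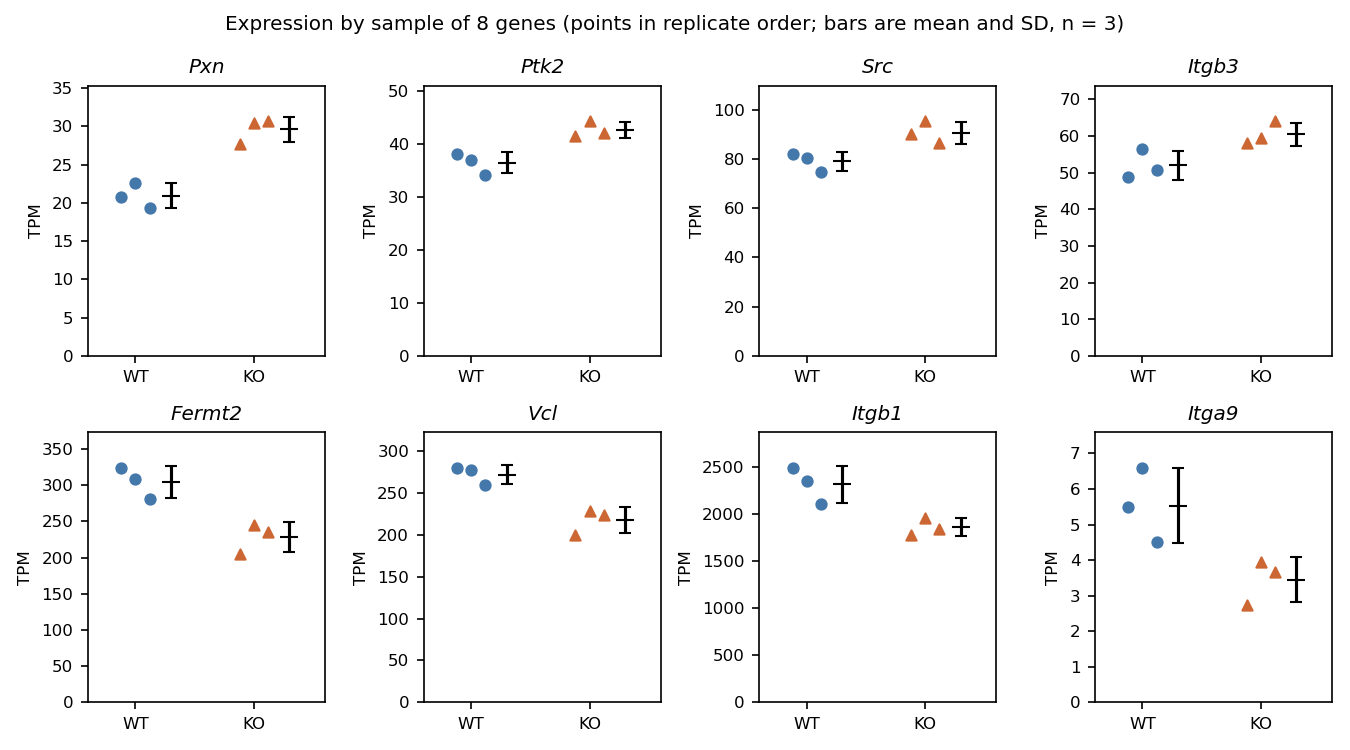
Expression in TPM of 8 genes in each sample (circles WT, triangles KO, in the order of the replicate labels), with the mean and SD of each group (n = 3) as black bars and axes that start at 0. Pxn, Ptk2, Src and Itgb3 are higher in all KO samples, and Fermt2, Vcl, Itgb1 and Itga9 are lower in all of them, of which Pxn, Fermt2, Vcl and Itga9 passed an adjusted p of 0.05 in the deposited values.

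Neither zyxin nor a tensin among the members passed in the deposited values. Zyx, zyxin, which gathers where stress fibres pull, was at 353, 395 and 373 TPM in WT and at 345, 374 and 362 TPM in KO, with a 95% CI of the log2 fold change from -0.26 to 0.16. The tensins, which tie integrin tails to actin, had log2 fold changes of 0.12 for Tns3, -0.12 for Tns1 and -0.32 for Tns2. All 4 genes overlapped between the groups, and none had an adjusted p under 0.05 in the deposited values or an unadjusted p under 0.05. Tns3 passed with voom on recovered reads.

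A list of 60 further adhesion proteins was examined beside the members, of which 56 could be tested. At the thresholds of the study 1 was higher and 2 were lower, and at an adjusted p under 0.05 these were 1 and 4. These 3 and 5 of 56 genes (8.93% for the latter) stand below the 10.7% and 27.8% of all tested genes called at the same thresholds. The median log2 fold change was -0.03 beside -0.07 for all tested genes. Ptk2b, the kinase Pyk2 and closest relative of focal adhesion kinase, rose from 9.14, 9.48 and 8.81 TPM to 12.9, 15.6 and 14.8 TPM (log2 fold change 0.60, limma adjusted p = 0.00437). Sorbs3, which encodes the vinculin-binding protein vinexin, fell from 30.3, 38.4 and 33.1 TPM to 16.1, 22.1 and 19.3 TPM (-0.80, adjusted p = 0.0028). Enah, the actin polymerisation factor Mena that binds zyxin, fell from 48.3, 53.1 and 50.3 TPM to 32.9, 36.9 and 36.0 TPM (-0.51, adjusted p = 0.00474). For these 3 genes, which were picked by their calls on the same values, all KO samples lay outside the WT range. Of all tested genes, 13.3% had all KO samples higher and 29.9% had all of them lower. The count of 3 at the thresholds of the study fell to 0 or 1 when any 1 sample was left out, reaching 0 without WT 5, WT 8 or KO 10. After median-of-ratios scaling the count was 2, where 442 of the 14799 tested genes were called higher and 1497 lower.

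Of 40 genes for integrin ligands, 36 could be tested. Icam1, the ligand of leukocyte integrins, rose from 1.22, 1.23 and 0.895 TPM to 4.13, 3.81 and 4.57 TPM, a log2 fold change of 1.29 (limma, adjusted p = 0.000636), and was the 1 ligand past the thresholds of the study. At an adjusted p under 0.05, 2 ligand genes were higher and 1 lower, or 8.33% of the list against 27.8% of all tested genes (7.14% higher and 20.7% lower). The median log2 fold change of the ligand genes was 0.03. The other gene that was higher was Mfge8, a secreted ligand of the Itgav integrins, from 194 ± 18.1 to 251 ± 12.3 TPM (SD, n = 3 each; log2 fold change 0.37, adjusted p = 0.022). The gene that was lower was Ccn2, a matricellular ligand (-0.44, adjusted p = 0.0452). Fn1, fibronectin, did not pass, at 3340 ± 276 and 3167 ± 419 TPM (SD, n = 3 each). Among the adhesion proteins, Sharpin, an inhibitor of integrin activation, and Svil, the actin-binding protein supervillin, were also lower at an adjusted p under 0.05 (log2 fold changes -0.64 and -0.57, adjusted p = 0.00573 and 0.0289). These and Mfge8 and Ccn2 are outside the rule for naming genes and were named after their values were seen.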

How the data were processed

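RNA of 3 WT and 3 KO MEF cultures was sequenced. The authors used STAR for alignment to mm10 and DESeq2 for differential expression. The submitters' processing notes also list Bowtie 0.12.2 without a role, and the program that counted reads is not given in the sources used here. The authors deposited 1 table of 26898 genes with TPM per sample, each column having the same sum. Per gene, the authors deposited their own log2 fold change and adjusted p-value as well, which were not used.

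Whole reads were recovered from TPM and merged exon lengths of GENCODE M21 (all 26898 identifiers matched), and 100.0% of values were whole at a tolerance of 0.05. They give 17655495 to 27718259 reads assigned to genes per sample. TPM, not counts, was the unit tested, so DESeq2 and edgeR were not run here.

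The 14799 genes with a mean of 1 TPM or more in WT or in KO were compared in limma 3.58.1 (R 4.3.3), using log2(TPM + 1), the variance trend, 2 groups and no covariate, and p-values were adjusted over all 14799 genes by the Benjamini-Hochberg method. Fold changes on this scale understate the change of low genes. Confidence intervals are at 95% and are for the difference between the group means. Their width comes from the variance between the 3 cultures of a group, moderated by the variance trend over all tested genes. The procedure was tested on simulated data with log2 fold changes of 0 and 1 only. At 1, the main fit recovered 81.5% of the changed genes at the thresholds of the study. Recovery of changes as small as those of the members was not tested. Alternatives were a pseudocount of 0.1, no filter, a filter at 10 TPM, median-of-ratios scaling, no variance trend, voom on recovered reads, and leaving out each sample.

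The members and lists were chosen with earlier results of these data known. All members are named, in order of role; from the lists of other adhesion proteins and ligands, genes past the thresholds of the study are named. The library kit does not mark strand, so reads from overlapping genes on opposite strands cannot be told apart. Protein sequences were not used here. Itga2b and the leukocyte alpha subunits have names with letters and did not match the rule.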

Additional observations from a re-analysis of the deposited data

How the results depend on the processing

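No paired analysis was possible because the replicate numbers of the WT group (4, 5 and 8) and the KO group (3, 7 and 10) share no number. The count of members at an adjusted p under 0.05 was 4 in the deposited values. It was 2 with no filter, 13 after median-of-ratios scaling and 14 with voom on recovered reads. The 13 and the 14 each include Itgb2, which supports no difference. The count ranged from 0 to 7 when 1 sample was left out, 0 without KO 10 and 7 without WT 8. Among all tested genes, 1057 were higher and 3057 lower of 14799 at this threshold. With no filter these were 773 and 2425 of 26898, after scaling 2783 and 3553, and with voom 3207 and 3590 of 14799. They were 601 and 2235 of 14812 without KO 10, and 670 and 2837 of 14883 without WT 8. The count at the thresholds of the study was 0, and became 1 with median-of-ratios scaling (Pxn) and 2 with voom (Itga2 and Pxn). It stayed at 0 without any 1 sample. The count of 3 further adhesion proteins was 2 with a pseudocount of 0.1, 2 after median-of-ratios scaling and 2 with voom. It was 0 with no filter, 0 without the variance trend, 5 with a filter at 10 TPM, and 0 to 1 when 1 sample was left out. The 1 ligand (Icam1) became 0 with no filter and 0 at 10 TPM, where Icam1 is not tested, and stayed at 1 without any 1 sample. Over all tested genes, calls at the thresholds of the study were 242 higher and 1337 lower, against 442 and 1497 after median-of-ratios scaling, 642 and 1799 with voom, 55 and 286 with no filter, and 289 and 941 at 10 TPM.

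Small log2 fold changes turned sign with scaling. With median-of-ratios scaling and with voom, they were 0.0458 and 0.0539 for Itga3, 0.0382 and 0.0599 for Itga6, 0.00331 and 0.0190 for Itgav, 0.0145 and 0.0306 for Tln1, 0.0683 and 0.0946 for Tln2, and 0.0383 and 0.0538 for Zyx. Without 1 sample, the log2 fold changes that turned sign ranged from -0.157 to 0.0342 for Ilk, -0.0128 to 0.144 for Itga10, -0.193 to 0.175 for Itga3, -0.168 to 0.122 for Itga6, -0.0994 to 0.156 for Itga7, -0.189 to 0.0424 for Itgav, -0.0535 to 0.0986 for Lims1, -0.0183 to 0.111 for Tgfb1i1 and -0.144 to 0.101 for Tln2. None of these genes passed an adjusted p of 0.05 in any setting. No member that was called in the deposited values changed direction in any setting. The calls gained with scaling include the step that sets the samples to the typical gene, and the cause of each gain was not tested. Itgb2, Ilk, Itga10 and Itga2 rest on the fewest reads of the members, 12 to 164 per sample, so that counting error weighs most on their levels. Exon overlap with other genes is a further limit for Ilk (89.7% of its exon length) and Itga10. Of the exon length of Itga10, 33.5% is shared with Gm42957 on the same strand.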
